A study of Homo sapiens with 6 samples.

Results

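The synaptophysin family of vesicle membrane proteins was followed in H146 cells, an established SCLC cell line, after knockdown of the mitotic kinesin KIFC1. The family holds 8 of the 28395 genes in the count table: the physins SYP (synaptophysin), SYPL1 (pantophysin), SYPL2 (mitsugumin 29) and SYNPR (synaptoporin), and the synaptogyrins SYNGR1, SYNGR2 (cellugyrin), SYNGR3 and SYNGR4. SYPL1 was chosen by its higher counts after knockdown in this same comparison, so its values are given as a description and without a test. The other 7 genes were taken because they belong to the family, whatever their values.

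Levels, 3 prime UTRs and vesicle partners of these genes were compared between 3 control siRNA libraries (genotype WT, negative control siRNA) and 3 siKIFC1 libraries (genotype KIFC1 knockdown, KIFC1 siRNA). All 6 were collected on day 2, and the sample titles call the 3 libraries of a group biological replicates. The knockdown was transient, and which KIFC1 siRNA the library code KD_2 stands for is not given in the sources used here. The RNA came from whole cultures, so fewer cells of a kind and less RNA per cell cannot be told apart.

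Physins and gyrins are small proteins that cross the membrane of transport vesicles several times, through a domain called MARVEL that occludin and the MAL proteins share. SYP is among the most abundant proteins of synaptic vesicles and of the small clear vesicles of neuroendocrine cells, where it binds the fusion protein VAMP2 (synaptobrevin) and helps its retrieval after fusion. Pathologists stain for synaptophysin to recognise neuroendocrine tumours, SCLC among them. SYPL1 and SYNGR2 are the broadly expressed relatives, found on transport vesicles of many cell types, such as those that carry the glucose transporter GLUT4 in fat cells.

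Libraries held from 15392374 to 17754458 counts. KIFC1, the target, had 14, 4 and 14 counts in the controls against 1, 1 and 0 after knockdown. Its mean CPM, the count scaled to library depth by edgeR's TMM method, was 0.618 ± 0.320 in control libraries (SD, n = 3). All of its 32-base words also occur on alternate sequences of GRCh38, and its counts are low. Against a floor of 3 counts per library it was at least 3.23-fold lower with siKIFC1. Its log2 fold change was fitted at -3.66 (standard error 0.82; edgeR adjusted p = 0.0739). With the replicate number as a block this p was 0.00459, and over all alternatives it ran from 0.00412 to 0.370. In this test 48 of 14777 genes were called higher (0.325%) and 55 lower (0.372%). With the block 407 were called higher (2.75%) and 454 lower (3.07%). At an unadjusted p under 0.05, 697 genes were higher (4.72%) and 672 lower (4.55%). DESeq2 called 126 higher (1.01%) and 148 lower (1.19%) of the 12481 genes to which it gave an adjusted p, and limma-voom 44 higher (0.298%) and 53 lower (0.359%) of 14777. Leaving out siKIFC1 replicate 3 raised the edgeR calls without the block to 194 higher and 274 lower, and that library also stands apart from the other siKIFC1 libraries in several family members below.

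The SCLC label was checked against marker lists. All 13 neuroendocrine markers exceeded 10 counts in at least 1 library. Their summed level was 3810 to 4300 CPM with control siRNA and 4070 to 4650 CPM with siKIFC1. The lowest, NKX2-1, was near the floor, at 0.172 ± 0.105 CPM with control siRNA and 0.495 ± 0.323 CPM with siKIFC1, and was not tested. By the same cut 2 of 4 tuft-type, 2 of 5 non-neuroendocrine, 3 of 5 fibroblast and 2 of 4 leukocyte markers passed too. The NEUROD1-type and alveolar markers did not. Neither POU2F3, NEUROD1 nor YAP1, which mark non-neuroendocrine or other subtypes of SCLC, exceeded 10 counts in any library. The summed levels of the 4 tuft-type markers (9.78 to 10.7 CPM and 8.08 to 14.6 CPM), the 3 NEUROD1-type markers (at most 0.922 CPM) and the 5 non-neuroendocrine markers (at most 3.10 CPM) stayed low in both groups. So did those of 5 fibroblast markers (11.5 to 17 CPM and 12.1 to 14.8 CPM), 4 leukocyte markers (at most 6.06 CPM) and 3 alveolar markers (at most 0.659 CPM). Of the 12 neuroendocrine markers tested, edgeR called 0, with 4 higher and 1 lower at an unadjusted p under 0.05 (4.72% and 4.55% of all genes), and DESeq2 called 1 lower (1.19%). With the block NCAM1, a surface adhesion molecule, was called lower (243 ± 17.7 and 182 ± 17.7 CPM, SD, n = 3; edgeR adjusted p 0.000646).

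Levels of the members can be set beside each other only per length, so counts were also expressed as RPKM over the union of each gene's exons. With control siRNA, the broadly expressed SYNGR2 led with 34.7 ± 0.592 RPKM (SD, n = 3), followed by SYP with 19.4 ± 0.810 RPKM and SYPL1 with 10.8 ± 0.883 RPKM. SYNPR, a physin of a subset of neurons, had 4.42 ± 0.336 RPKM, SYNGR3 3.20 ± 0.144 RPKM and SYNGR1 1.41 ± 0.105 RPKM, SYNGR3 and SYNGR1 being gyrins of synaptic vesicles. SYNGR4, known from testis, had 0.311 ± 0.128 RPKM and SYPL2, a protein of skeletal muscle membranes, 0.0815 ± 0.0244 RPKM. The ranges of neighbours in this order were separate at every step, so SYP and SYNGR2 were the most abundant physin and gyrin transcripts of these cells. With siKIFC1 the order was the same but for SYPL1, which at 22.6 ± 0.487 RPKM stood beside SYP at 17.9 ± 4.25 RPKM. The lowest SYPL1 library (22.1 RPKM) lay just under the highest SYP library (22.3 RPKM), so these neighbours were not separated. Per base of the longest transcript SYP stayed above SYPL1 in the mean with siKIFC1, at 36.6 ± 8.68 RPKM against 30.9 ± 0.665 RPKM, and their ranges again overlapped.

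**Figure D1:**
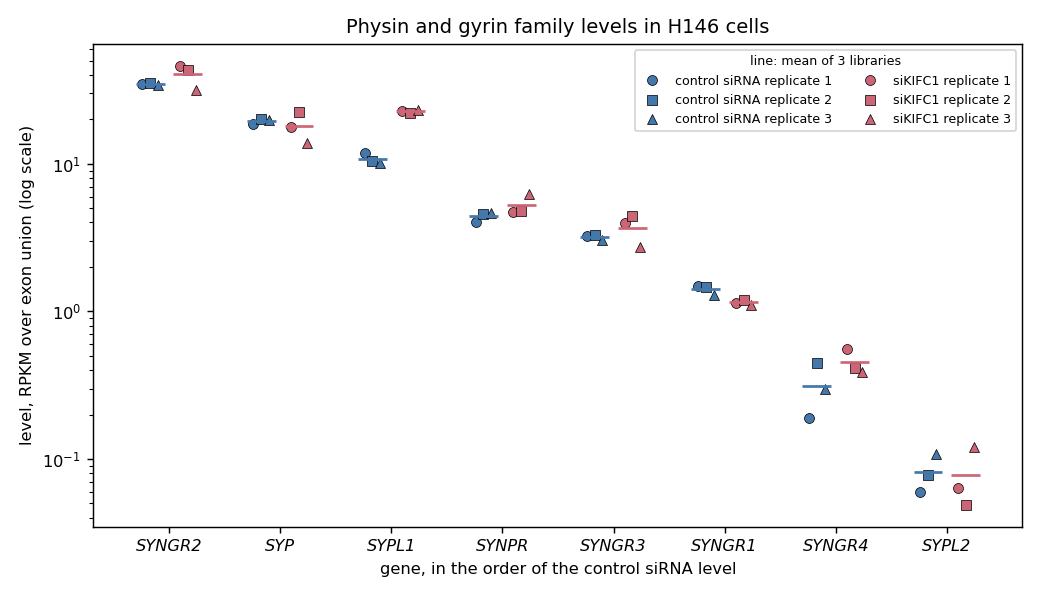
Level of each family member in the 6 libraries, in RPKM over the exon union on a log10 axis; points are libraries, marked by replicate, and bars are group means. SYPL1 is at 22.1 to 23.0 RPKM in the siKIFC1 libraries and overlaps SYP there, while in control libraries the ranges of SYP and SYPL1 are apart.

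SYPL1 (NCBI gene ID 6856) lies on the minus strand of chromosome 7, at chr7:106090505-106112576 of GRCh38. Its counts were 573, 490 and 541 in the controls and 1038, 975 and 1093 after knockdown. Scaled to depth, these were 34.4, 30.7 and 29.5 CPM against 66.3, 64.2 and 66.9 CPM. Every siKIFC1 library was above every control library, and the spread within each group was small beside the distance between them. The means were 31.5 ± 2.57 and 65.8 ± 1.42 CPM (SD, n = 3), a fitted log2 fold change of 1.06 (standard error 0.11, 95% interval 0.82 to 1.30), or 2.09-fold. Because this difference chose the gene, no p is given. Over the 14 alternatives the log2 fold change ran from 1.02 to 1.13, and it ranked 47 among the 14777 genes tested, counted from the highest.

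The 3 prime UTR of SYPL1 (1300 bases, 31.2% GC in GENCODE 44) holds a 6-base word, GCAACC. It was found earlier on these same libraries as a word of genes with higher counts, as described further on. The word is printed in capitals with the bases around it, at chr7:106090518-106090547 on the minus strand:
SYPL1: tatatcttttttGCAACCaatttaataaag
It starts at base 1270 of the UTR, and 25 bases follow it before the annotated end. The letters AATAAA, the usual polyadenylation signal, begin 5 bases after it.

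SYP (NCBI gene ID 6855), on the minus strand at chrX:49187815-49200193, was counted 2147, 2229 and 2523 times in the controls and 1939, 2362 and 1572 times after knockdown. In CPM these were 129, 140 and 137 against 124, 156 and 96.3. The groups overlapped: siKIFC1 replicate 2 was the highest of all 6 libraries and siKIFC1 replicate 3 the lowest. The log2 fold change was -0.11 (standard error 0.15, 95% interval -0.44 to 0.22; edgeR adjusted p = 0.902, and 0.484 to 1 over all alternatives). Without siKIFC1 replicate 3 it was 0.05 (standard error 0.11, adjusted p 0.858), so the sign of the SYP difference rests on that library.

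SYNPR (NCBI gene ID 132204), at chr3:63200604-63616924 on the plus strand, had 16.3, 18.5 and 18.8 CPM with control siRNA and 19.0, 19.4 and 25 CPM with siKIFC1. The groups did not overlap, but only just, and siKIFC1 replicate 3 was the highest library. The log2 fold change was 0.24 (standard error 0.14, 95% interval -0.07 to 0.55; adjusted p = 0.694 in edgeR, 0.283 with the replicate block). The last physin, SYPL2 (NCBI gene ID 284612, chr1:109466546-109482134, plus strand), had 4, 5 and 8 counts in the controls and 4, 3 and 8 after knockdown, too few to enter the test.

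SYNGR1 (NCBI gene ID 9145), at chr22:39349991-39385575 on the plus strand, had 10.3, 10.1 and 8.99 CPM with control siRNA and 7.92, 8.30 and 7.72 CPM with siKIFC1. All siKIFC1 libraries were below all control libraries. The log2 fold change of -0.30 (standard error 0.16, 95% interval -0.64 to 0.04) did not pass the test (edgeR adjusted p = 0.618, 0.296 with the block). Groups that do not overlap were common: 2291 of the 14777 genes tested (15.5%) had none of their siKIFC1 libraries within the range of the controls, on either side. SYNPR and SYNGR1 are such genes among the 5 tested members other than SYPL1.

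SYNGR2 (NCBI gene ID 9144), at chr17:78168545-78172964 on the plus strand, had 142, 142 and 138 CPM with control siRNA and 186, 174 and 129 CPM with siKIFC1. Replicates 1 and 2 with siKIFC1 were above all controls and replicate 3 was below them. The log2 fold change was 0.22 (standard error 0.13, 95% interval -0.07 to 0.51; edgeR adjusted p = 0.710). Without siKIFC1 replicate 3 it was 0.36 (standard error 0.09) and passed the test (adjusted p = 0.0415). Over all alternatives the adjusted p ran from 0.0415 to 1. Of the members, SYNGR2 alone has 32-base words on alternate sequences of GRCh38 (29.5% of the words within its exons). A pseudogene, SYNGR2P1, shares 29.2% of the words of the spliced SYNGR2 transcript. How reads were assigned between these places was not examined.

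SYNGR3 (NCBI gene ID 9143), at chr16:1989970-1994275 on the plus strand, also had siKIFC1 replicates 1 and 2 above all controls and replicate 3 below them, with 11, 11.2 and 10.3 CPM against 13.4, 15 and 9.25 CPM. Its log2 fold change was 0.21 (standard error 0.18, 95% interval -0.19 to 0.61; edgeR adjusted p = 0.823). SYNGR4 (NCBI gene ID 23546, chr19:48364268-48376377, plus strand) had 4, 9 and 7 counts in the controls and 11, 8 and 8 after knockdown and did not enter the test.

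In all, 6 of the 8 members passed the filter on low counts. Of the 5 other than SYPL1, edgeR called 0 in either direction, against 0.325% of all genes called higher and 0.372% lower. The number with an unadjusted p under 0.05 was 0 as well, and so were the numbers called by DESeq2, by limma-voom and with the replicate block. The intervals reach 0.55 on the log2 scale for SYNPR, 0.51 for SYNGR2 and 0.61 for SYNGR3, and -0.64 for SYNGR1, so differences of up to that size lie within the precision of these libraries. SYP and SYNPR overlap annotated antisense genes (SYP-AS1 and SYNPR-AS1). The strand setting of the counting is not given in the sources used here, so reads of either partner cannot be told apart.

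**Figure D2:**
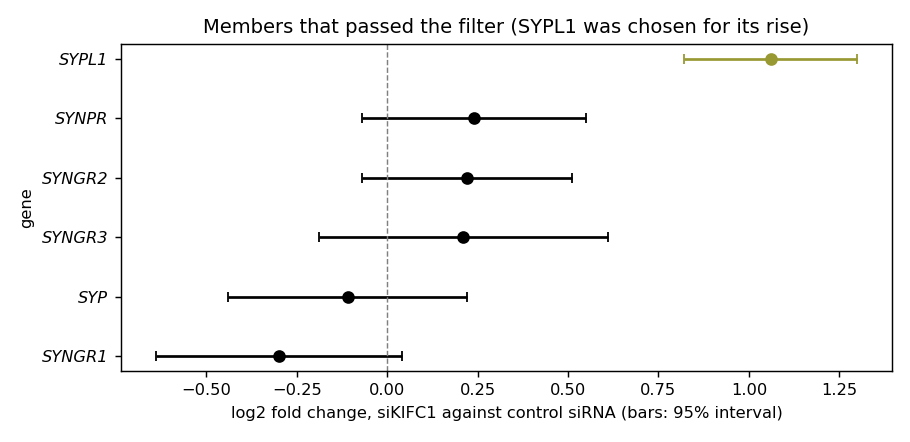
Log2 fold change of each tested family member, siKIFC1 against control siRNA, with its 95% interval from edgeR; the dashed line marks no change. SYPL1 stands at 1.06 and was chosen for this difference, so its interval is not a test. The intervals of the other 5 members all include 0.

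The make-up of the family differed with SYPL1. Of the summed RPKM of the 8 members, SYPL1 held 14.6 ± 1.16% with control siRNA (13.8% to 15.9%) and 25 ± 3.56% with siKIFC1 (22.5% to 29.1%; SD, n = 3). SYP held 26.1 ± 1.06% (24.9% to 26.9%) and 19.5 ± 2.84% (17.4% to 22.7%). SYNGR2 remained the largest share, with 46.6 ± 0.321% and 43.8 ± 3.65%. SYPL1 is in the sum itself, so a smaller share of SYP does not mean less SYP. The ratio of SYPL1 to SYP, in RPKM, was 0.640, 0.527 and 0.514 in the control libraries and 1.28, 0.990 and 1.67 in the siKIFC1 libraries. The siKIFC1 ratios were all above the control ratios, and the highest was in replicate 3, where SYP was lowest. The summed level of the family was 74.3 ± 1.15 RPKM and 91.4 ± 10.7 RPKM (73.2 to 75.5 and 79.1 to 98.2). The shares and ratios also depend on the exon union as divisor. Per base of the longest transcript SYP stayed above SYPL1 in the mean with siKIFC1 (36.6 ± 8.68 against 30.9 ± 0.665 RPKM). These shares contain the difference that chose SYPL1 and have no test.

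**Figure D3:**
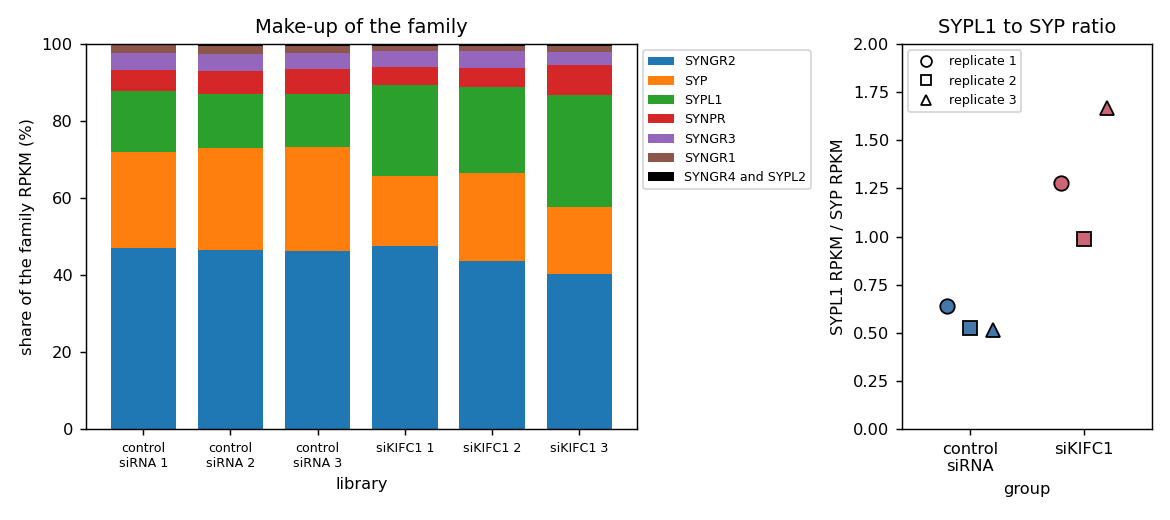
Left, share of each member in the summed RPKM of the family in each of the 6 libraries, in percent; right, ratio of SYPL1 to SYP RPKM in each library, by group and replicate. SYPL1 takes 13.8% to 15.9% of the sum in control libraries and 22.5% to 29.1% in siKIFC1 libraries. Both panels use RPKM over the exon union.

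The members also differ in their 3 prime UTRs. GCAACC, and a 7-base word, GAGATCT, were found earlier on these same libraries as words of genes with higher and lower counts, so they are no independent evidence here. Both were searched on the strand of the mRNA, in the canonical transcript. Of the 8 members, SYPL1 is the one with a GCAACC in its 3 prime UTR, and 0 members have GAGATCT there. Among 1640 genes with a 3 prime UTR within 20% of the length of that of SYPL1, 16.3% have GCAACC. SYNGR1, with a 3 prime UTR of 3661 bases, has neither word, where 42.7% of the 1549 genes of like UTR length have GCAACC and 17.9% have GAGATCT. The 3 prime UTRs of SYP (1472 bases), SYPL2 (2586 bases), SYNPR (1443 bases), SYNGR2 (784 bases), SYNGR3 (1203 bases) and SYNGR4 (59 bases) have neither. SYP and SYNGR1 each have 1 GCAACC elsewhere in the mRNA.

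Over all 12971 tested genes with an annotated 3 prime UTR, 3014 (23.2%) hold GCAACC and 1163 (9.0%) GAGATCT. The 2506 genes with GCAACC alone had a median log2 fold change of 0.041 and held 40 of the 47 genes called higher. SYPL1 ranked 10 among them. The 655 genes with GAGATCT alone had a median of -0.141 and held 37 of the 53 called lower. The 9302 genes with neither word, the class of the other tested members, had a median of 0.014, with 3 called higher and 8 lower. A match of these letters is a description of the sequence and does not name what acts on it.

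The genes whose pattern over the 6 libraries was most like that of SYPL1 were sought by Pearson's r of log2 CPM among 11757 genes. These are the points of 6 libraries in 2 groups, so r mostly reflects the group difference and has no p. The closest were YBX3 (r = 0.997), a cold shock domain RNA-binding protein, BAALC (r = 0.996), SMPD4 (r = 0.994), a neutral sphingomyelinase, INTS14 (r = 0.993), an Integrator subunit, and TMEM230 (r = 0.993), a vesicle membrane protein. YBX3 had 119 ± 10.7 CPM with control siRNA and 215 ± 6.56 CPM with siKIFC1, a log2 fold change of 0.85. TMEM230 had 130 ± 8.45 and 189 ± 2.73 CPM, a log2 fold change of 0.54. In the other 3 the log2 fold change was 0.45 to 0.77, and in all 5 the groups did not overlap. These genes were picked for likeness to SYPL1, whose groups are apart, so this follows from the choice. Of all genes tested 15.5% have no overlap. All 5 have 1 or 2 copies of GCAACC in the 3 prime UTR and 0 of GAGATCT. Of 11014 genes at that level, 23.9% have GCAACC and 19.9% have GCAACC without GAGATCT. The word was found in these libraries among genes with higher counts, so it is no independent evidence in genes picked for following SYPL1. The sites of 4 of them are shown to be set beside that of SYPL1, with the word in capitals, all on the minus strand of GRCh38:
YBX3, chr12:10699397-10699426: tctccagtttcaGCAACCgctaggtttcta
SMPD4, chr2:130152382-130152411: tctggaggaaacGCAACCaagaaaggaagg
SMPD4, chr2:130151702-130151731: ctcaaagacatgGCAACCgttcagtggtac
INTS14, chr15:65578840-65578869: aacttttaaagaGCAACCattaatgtgtaa
TMEM230, chr20:5100251-5100280: ttcttactgacaGCAACCaggaattttttt
Between the word and the annotated end of the UTR lie 95 bases in INTS14, 320 in YBX3, 413 in TMEM230 and 986 and 306 in SMPD4, against the 25 in SYPL1.

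SYPL1 has 2 tested genes that start within 500 kb of its own start. NAMPT, the rate-limiting enzyme of NAD salvage, had a log2 fold change of 0.11 (standard error 0.11, edgeR adjusted p = 0.853), and ATXN7L1 one of -0.43 (standard error 0.16, edgeR adjusted p = 0.383). Around the other members from 1 (SYNPR) to 46 (SYNGR3) genes were tested. Of the 147 neighbours of all members edgeR, DESeq2 and limma-voom called 0, with 7 higher and 5 lower at an unadjusted p under 0.05 (4.72% and 4.55% of all genes). With the block, which called 2.75% of all genes higher and 3.07% lower, 2 neighbours were called higher, WDR47 near SYPL2 (adjusted p 0.0418) and APOBEC3B near SYNGR1 (0.00512), and 2 lower, TNRC6C near SYNGR2 (0.0282) and SPHK2 near SYNGR4 (0.0443). Neither count of block calls exceeds what those shares give for 147 genes.

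Genes that work with the family were taken from 5 lists of 111 genes, of which 97 were tested. In edgeR 2 were called higher (against 0.325% of all genes) and 0 lower (against 0.372%), with 10 higher and 10 lower at an unadjusted p under 0.05 (4.72% and 4.55% of all genes). DESeq2 called 5 higher and 3 lower (1.01% and 1.19% of all genes). With the replicate block 6 were called higher (2.75% of all genes) and 10 lower (3.07%). The median log2 fold change over all genes was 0.01.

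Of the synaptic vesicle membrane proteins, 26 of 33 were tested, with a median log2 fold change of 0.03. SLC18A2, the vesicular monoamine transporter, rose from 119, 121 and 121 CPM to 156, 194 and 189 CPM. All siKIFC1 libraries were above all controls, at a log2 fold change of 0.58 (standard error 0.11, edgeR adjusted p = 0.0407). Leaving out control replicate 1, 2 or 3 or siKIFC1 replicate 2 ended the call, at edgeR adjusted p of 0.0993 to 0.220. The list had 3 genes higher and 2 lower at an unadjusted p under 0.05 (4.72% and 4.55% of all genes). With the block SYT1, the calcium sensor of vesicle fusion, was also called higher (190 ± 12 and 270 ± 39.6 CPM, adjusted p 0.000179). SV2B, a glycoprotein of synaptic vesicles (132 ± 10.6 and 94.9 ± 7.90 CPM, adjusted p 0.000405), RAB3A (log2 fold change -0.34, adjusted p 0.0316) and SLC32A1, the GABA transporter of vesicles (-0.76, adjusted p 0.0205), were called lower with the block. RAB3B, with 539 ± 78.8 CPM in control libraries, and SYT4, with 251 ± 19.4 CPM, had the most reads of the list, not scaled to length, and log2 fold changes of 0.13 and 0.05 (edgeR adjusted p 0.897 and 0.943).

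All 23 genes of the SNARE fusion machinery were tested, with a median log2 fold change of 0.02. VAMP2, the binding partner of SYP and named for that after its values were seen, had 138, 116 and 96.3 CPM with control siRNA and 110, 130 and 82.7 CPM with siKIFC1. The groups overlapped widely, and its log2 fold change of -0.12 (standard error 0.17, edgeR adjusted p = 0.904) was close to that of SYP. STX2, a plasma membrane syntaxin, rose from 575, 479 and 528 counts to 771, 703 and 726 counts, or 31.1 ± 3.03 and 46.7 ± 2.41 CPM, a log2 fold change of 0.59 (standard error 0.12, edgeR adjusted p = 0.0454). That call was lost without any 1 library other than siKIFC1 replicate 3, at adjusted p of 0.0925 to 0.314. At an unadjusted p under 0.05, 4 genes were higher and 4 lower (4.72% and 4.55% of all genes). The vesicle priming factor UNC13A (246 ± 27.8 and 191 ± 24.7 CPM, adjusted p 0.00350), NAPB (0.00697), NAPA (0.0164) and NSF (0.0458) were called lower with the block, the last 3 being parts of the complex that takes SNAREs apart. NSF had 10, 196 and 11 counts in control libraries and has an alternate copy in GRCh38, so its value is uncertain. UNC13B, which with UNC13A had the most reads of the list, not scaled to length, had a log2 fold change of -0.23 (edgeR adjusted p = 0.566).

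Of the endocytic and sorting proteins that recover vesicle components, 24 of 25 were tested, with a median log2 fold change of 0.01. edgeR called 0, and DESeq2 called 1 higher (1.01% of all genes). At an unadjusted p under 0.05, 1 gene was higher and 1 lower (4.72% and 4.55% of all genes). With the block AP2B1, a subunit of the AP-2 clathrin adaptor, was called higher (288 ± 23.4 and 404 ± 59.6 CPM, adjusted p 0.000184) and the dynamin DNM1 lower (83.6 ± 2.90 and 66.2 ± 9.50 CPM, adjusted p 0.0254). CLTC, the clathrin heavy chain, and AP2M1, another AP-2 subunit, had the most reads of the list, not scaled to length, with log2 fold changes of 0.07 and -0.08 (edgeR adjusted p 0.937 and 0.904).

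The list of GLUT4-type vesicles, in which SYPL1 and SYNGR2 are known to travel, holds cargo and regulators. Of its 11 genes 10 were tested, with a median log2 fold change of 0.09. GLUT4 itself (SLC2A4) was not tested, with 0, 3 and 0 counts in control libraries and 1, 3 and 3 with siKIFC1. edgeR, DESeq2 and limma-voom called 0. At an unadjusted p under 0.05, 1 gene was lower and 0 higher (4.55% and 4.72% of all genes). The transferrin receptor TFRC had 381 ± 42.3 CPM and 302 ± 42.1 CPM, a log2 fold change of -0.33 (edgeR adjusted p = 0.390), and was called lower with the block (adjusted p 0.00410). IGF2R had a log2 fold change of -0.05 (edgeR adjusted p = 0.960).

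The MARVEL relatives, which share the membrane domain, had 14 of 19 genes tested. Their median log2 fold change was 0.12, with 11 above 0 and 3 below. Over all genes tested 7698 were above 0 and 7079 below, and the quartiles were -0.12 and 0.13. Of this list edgeR called 0, and DESeq2 called 1 lower (1.19% of all genes). At an unadjusted p under 0.05, 2 of its genes were higher and 2 lower (4.72% and 4.55% of all genes). CMTM4 had 61.7, 70.7 and 77.1 CPM with control siRNA and 41.8, 40.6 and 52.1 CPM with siKIFC1. The groups were apart, and the log2 fold change of -0.64 (standard error 0.13) missed the threshold in edgeR (adjusted p = 0.0513) and passed it with the block (4.38e-05). CMTM8 was called higher with the block (21.2 ± 1.04 and 27.7 ± 4.34 CPM, adjusted p 0.0434). MAL2, with 327 ± 14.7 CPM, and MARVELD1, with 76.3 ± 1.56 CPM, had log2 fold changes of 0.09 and 0.03 (edgeR adjusted p 0.888 and 0.980).

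Of the 6 list genes called higher with the block, 5 have GCAACC in the 3 prime UTR and 0 have GAGATCT. Of the 10 called lower, 0 have GCAACC and 3 have GAGATCT (SV2B, UNC13A and TFRC). SLC18A2, SYT1 and AP2B1 have 1 copy of GCAACC each, and STX2 has 3. These genes and words come from the same libraries in which the words were found.

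**Figure D4:**
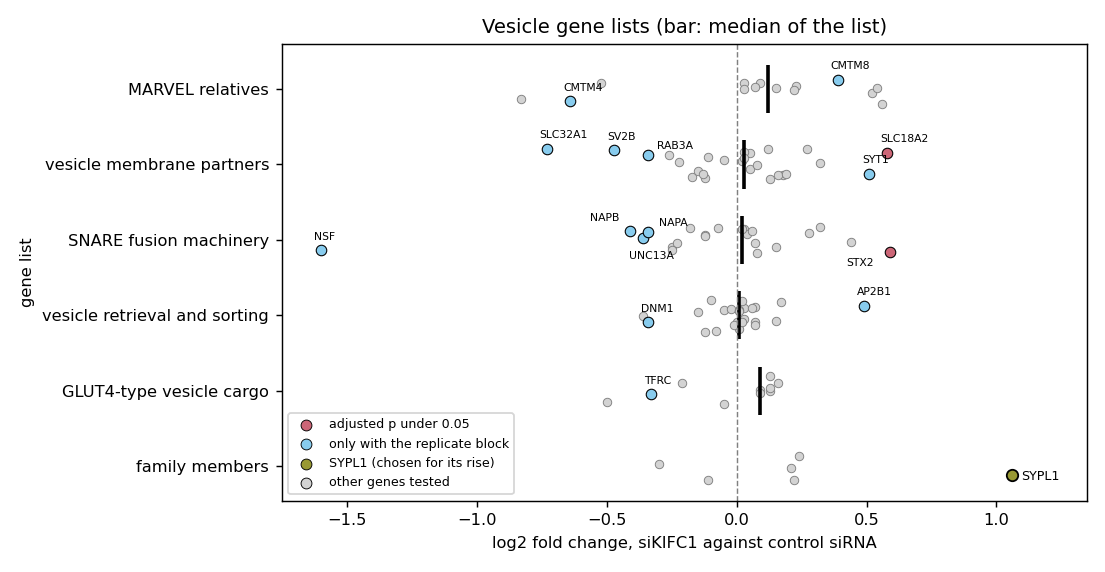
Log2 fold change, siKIFC1 against control siRNA, of the tested genes of the 5 lists and of the family; bars are list medians and colours mark genes called by edgeR or called with the replicate block only. 1 SNARE gene that counts in its median is not drawn. The medians lie between 0.01 and 0.12, and SYPL1, at 1.06, lies above every list gene.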

How the data were processed

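RNA of H146 cells was sequenced 48 hours after siRNA transfection, with 3 libraries per group. The authors aligned reads with HISAT2 2.2.1 to GRCh38 and deposited whole counts per gene from featureCounts 2.0.8, without normalization, per the labels and methods. The annotation, strand setting and treatment of reads with several alignments are not given in the sources used here. They tested with DESeq2 1.46.0 in R 4.4.2. The table holds 28395 NCBI gene IDs, of which 27745 matched a symbol (the 650 others held 0.062% of counts).

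The test of the counts was that of edgeR 4.0.16, run in R 4.3.3 (TMM factors of 0.975 to 1.04, filterByExpr with KIFC1 kept, robust quasi-likelihood test, two-sided, Benjamini-Hochberg adjustment over 14777 genes, threshold 0.05). The biological coefficient of variation was 13.1%. The standard error of a log2 fold change is its size over the square root of F. Floors of 3 counts cover counting error only. The test was also run on simulated data of independent libraries. These lacked the pairing by replicate number described below, so that run says nothing about it. Alternatives used DESeq2 1.42.0 and limma 3.58.1, other scalings and filters, the replicate block and each library left out. RPKM divides TMM-scaled CPM by exon union length. Exon unions and longest transcripts were measured in GENCODE 44, which need not be the annotation behind the counts. Words came from GENCODE 44 transcripts and positions from RefSeq GRCh38.p14. Tables and figures used Python 3.11.15, pandas 2.3.3 and matplotlib 3.10.9.

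The members and lists were chosen with earlier results of these data known. Named were the members, KIFC1, in each list the genes called and the 2 with the highest mean CPM, the 5 genes most like SYPL1 and like SYP over the libraries (mean log2 CPM of at least 2, prior count 2), and called neighbours. Other names, such as list genes called with the block and genome neighbours, were chosen after values were seen. Replicate numbers paired the libraries: after removal of group means, same-numbered libraries correlated over 11758 genes at 0.484, 0.414 and 0.491, the others at -0.457 to 0.0234. The numbers come from the sample titles. Values of some single genes of the marker and vesicle lists are not reported here.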

Additional observations from a re-analysis of the deposited data

How the results depend on the processing

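SYPL1 and the signs of SYNPR, SYNGR1, SYNGR2 and SYNGR3 were the same under all 14 alternatives. Without siKIFC1 replicate 3 the log2 fold change of SYP was 0.05 (it ran from -0.30 to 0.05 when each library was left out) and that of SYNGR2 was 0.36 and passed the test (from 0.11 to 0.36). The replicate block changed no other call among the members. SYPL2 and SYNGR4, tested by edgeR without the filter, had log2 fold changes of -0.07 (standard error 0.64, adjusted p 0.991) and 0.53 (standard error 0.54, adjusted p 0.847), so 3 to 11 counts per library limit them.

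Genes called higher and lower numbered 126 and 148 with DESeq2 on the same genes, 120 and 144 with DESeq2 without the filter, 121 and 144 with edgeR without the filter, and 407 and 454 with the replicate block. Leaving out each library gave 9 to 194 higher and 15 to 274 lower, the fewest without control replicate 3 and the most without siKIFC1 replicate 3. The cause was not tested.

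MARVEL relatives had 1 lower with DESeq2 (with and without the filter), with edgeR without the filter and with the block, and 1 higher with the block; leaving out a library gave 0 to 1 each way. Vesicle membrane partners had 2 higher and 1 lower with DESeq2 (with and without the filter) and with edgeR without the filter, and 2 higher and 3 lower with the block; leaving out a library gave 0 to 2 higher and 0 to 1 lower. SNARE genes had 2 higher and 1 lower with DESeq2 on the same genes, 1 higher and 1 lower with DESeq2 without the filter, and 2 higher and 4 lower with the block; leaving out a library gave 0 to 2 each way. Retrieval genes had 1 higher with DESeq2 (with and without the filter), with edgeR without the filter and with the block, and 1 lower with the block. The GLUT4-type list had 1 lower with the block, and 0 to 1 lower when a library was left out.

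Per base of the longest transcript, control levels were 46.3 (SYNGR2), 39.6 (SYP), 14.8 (SYPL1), 6.86 (SYNPR), 5.35 (SYNGR3) and 2.24 RPKM (SYNGR1), in the same order. The divisor is shorter by construction.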

Other observations

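The genes most like SYP over the 6 libraries, by Pearson's r of log2 CPM among the same 11757 genes, were ABCB8 (r = 0.998), PGGHG (0.992), BICDL1 (0.992), GPC2 (0.990) and GARIN1A (0.990). ABCB8, a mitochondrial ABC transporter, had 42.1 ± 0.950 CPM with control siRNA and 39.9 ± 6.28 CPM with siKIFC1 (SD, n = 3). GPC2, a cell surface glypican of the nervous system and its tumours, had 55.8 ± 2.45 and 50.7 ± 15.9 CPM. In all 5 the groups overlapped and the log2 fold change lay between -0.14 and -0.07, so their likeness to SYP lies in the spread between siKIFC1 libraries. GARIN1A has 2 copies of GCAACC in its 3 prime UTR and the other 4 have 0.

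The base after GCAACC was tabulated in the 1860 tested genes with exactly 1 copy and no GAGATCT in the 3 prime UTR, whose median log2 fold change was 0.042 with 23 called higher. Where an A follows, as in SYPL1, INTS14 and TMEM230, the median of 468 genes was 0.100 and 16 were called higher. Where a C follows it was 0.005 (388 genes, 1 called higher), where a G follows, as in YBX3, 0.054 (76 genes, 2 called higher) and where a T follows 0.037 (928 genes, 4 called higher). SYPL1 also has a T before the word, and the 161 genes with T before and A after had a median of 0.131, with 6 called higher. These values describe the libraries in which the word was found and were not tested.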
